A study of Mus musculus with 16 samples.

Results

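Unstimulated dendritic cells were followed over the hours after they had been moved into fresh medium. They make up 7 of the 16 arrays of the study, chosen as all arrays whose titles name control cells, and they fall into 3 groups by time. There are 3 arrays for 4 h, and 2 each for 10 h and for 18 h. The cells came from the bone marrow of wild type C57BL/6 mice and were grown for 8 days with GM-CSF at 15 ng/ml, taken from the medium of a transfected Ag8.653 myeloma line. Non-adherent immature cells were then seeded in fresh medium with GM-CSF at 10 ng/ml, and all groups share this treatment. The controls received no bacteria, and the other 9 arrays are of cells given Lactobacillus acidophilus NCFM at 10 µg/ml, with 3 arrays at each time. Age and sex of the mice, and whether cells of several mice were pooled, are not given in the labels. Nothing in the labels says that the numbered replicates are separate mice or cultures, so a p-value here reflects only how much these particular arrays differ. Number 1 is not a repeat of the RNA of the others, since Xist and genes of the Y chromosome read differently on it (values below); between numbers 2 and 3 the spread may be technical. Each array measured labelled RNA in 1 colour with 45101 probe sets. The table gives an intensity for each, already brought by the authors to nearly the same median on every array. The controls tell which genes move with time in culture alone, which is the base line for the response to the bacteria.

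GM-CSF is a growth factor that drives bone marrow precursors to divide and to become a mixture of myeloid cells. Such cultures are known to hold dendritic cells, which take up material and show it to T cells on MHC class II, macrophages, which digest what they take up in lysosomes, and some remaining granulocytes and dividing precursors. Dendritic cells that have been handled and replated can also mature without any stimulus. In a culture of mixed cells, fewer cells of a type and less RNA per cell cannot be told apart.

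The 7 control arrays separated by array number before they separated by time. On the first principal component, which held 62.3% of the variance, the 3 arrays numbered 1 lay between -22.56 and -21.34. The other 4 lay between 8.07 (4 h, number 2) and 29.0 (18 h, number 2), so the late number 2 array was the farthest from the number 1 arrays. Arrays of equal number deviated alike from their group means, and the number is a block in the fit. Where a control group has 2 arrays, these deviations only set number 1 against number 2. Those of number 2 at 10 h correlated at 0.54 with number 2 at 4 h and at 0.55 with number 3 at 4 h. For number 2 at 18 h these were 0.40 and 0.73. A match of the late number 2 arrays with number 2 at 4 h is thus not shown. At 10 and 18 h there is no array numbered 3.

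**Figure D1:**
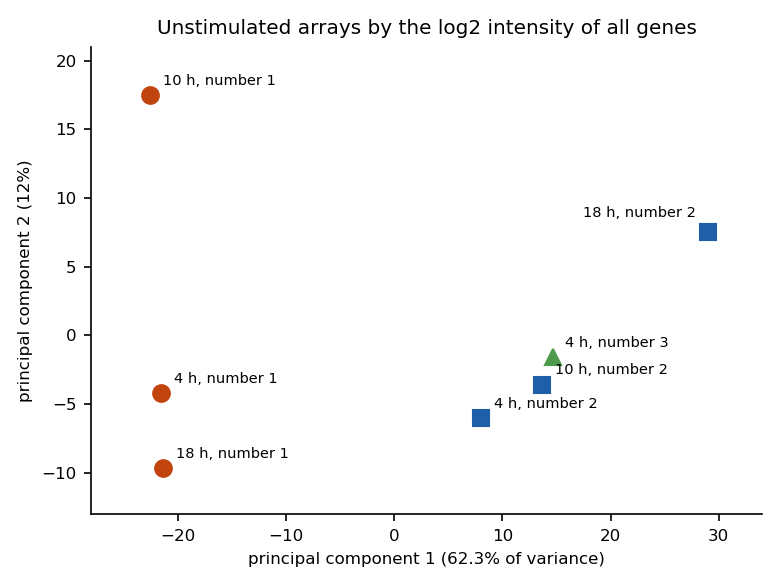
Each point is 1 unstimulated array on the first and second principal component of the log2 intensities of 18193 genes, with the share of variance of each in brackets and colour and shape for the array number. The 3 number 1 arrays share a place on the first component, from -22.56 to -21.34, whatever their time, and the other 4 lie above 8.

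Both 18 h arrays also stood apart in single genes. Number 2 at 18 h had 39 genes at least 1 log2 unit below all 6 other control arrays. Number 1 at 18 h had 15, number 1 at 10 h had 3, and the other 4 arrays had 0. In the other direction, number 1 at 10 h had 9 genes at least 1 log2 unit above all others, and number 2 at 18 h had 1. Number 1 at 10 h was also the highest on the second principal component, at 17.5. Malat1, a nuclear long non-coding RNA, read 4911, 7672 and 2601 at 4 h, 4958 on number 2 at 10 h and 3652 on number 1 at 18 h, against 242 on number 2 at 18 h. Srrm2, which makes a large splicing protein, was among the 39 as well, with 533 on that array and 1978 to 3350 on the others. Another probe set of Srrm2 read 747 there and 561 to 761 elsewhere. Of 31 of these genes with another bright probe set, that probe set was also at least 1 log2 unit below the others on that array in 5. The b-actin probe set at the 5′ end of the transcript read 5688 there and 9999 to 20476 on the other 6, and the 3′ to 5′ difference was 0.63 on the log2 scale against 0.09 to 0.62. The same difference of Gapdh was 0.02 there and -0.10 to 0.08 on the others. That of 18S RNA was 0.23 there, 1.28 on number 3 at 4 h and -1.11 on number 1 at 18 h. The 3′ probe sets of b-actin (8800 there, 15321 to 21730 on the others) and 18S RNA (2341, and 4700 to 6825) read lowest on that array. That of Gapdh lay within the range of the others (17906, and 17401 to 19282). On number 1 at 18 h the 15 genes included Tomm7 of the mitochondrial import pore (1103 against 2882 to 4064) and the respiratory chain subunit Ndufa3 (2544 against 6397 to 7110). The part of RNA quality in any time difference was not tested, and the main lists are given below with each 18 h array left out. These lists of genes were chosen after their values were seen.

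The resting profile held the markers of dendritic cells and of macrophages together. Of 21 measured dendritic cell markers 18 lay above the array median on all 7 arrays, where 11111 of the 18193 genes did. Cd74, the chaperone of MHC class II, read 22775, 22005 and 22400 at 4 h, 21231 and 21422 at 10 h, and 24211 and 22649 at 18 h. It was level across all arrays, as was H2-Aa, a class II chain, at 15621 to 17833. Flt3, the receptor of the growth factor FLT3L, read 307 to 427 and Zbtb46, a transcription factor of classical dendritic cells, 306 to 461. Xcr1, a receptor of cross-presenting dendritic cells, lay below the median on all 7 arrays at 127 to 143.

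All 18 macrophage markers lay above the median on all 7 arrays, with Lyz2, the lysozyme of myeloid cells, at 25657 to 29485 and Csf1r, the receptor of M-CSF, at 10370 to 19675. So did 11 of 12 neutrophil markers, 4 of 9 progenitor markers, 4 of 9 mast cell and basophil markers, 3 of 5 eosinophil markers and 5 of 9 markers of plasmacytoid dendritic cells, of which Siglech was at 118 to 138 and above the median on none. In lists of lineages outside the myeloid cells 3 of 8 B cell, 4 of 10 T and NK cell, 6 of 9 erythroid and megakaryocyte and 2 of 10 fibroblast and endothelial markers lay above the median on all 7 arrays. The platelet chemokine gene Pf4 was the brightest of them, at 4597 to 10150. Some members of these lists lay below the median on every control array. Examples are Cd3g of the T cell receptor complex (83 to 91), Cd79a of the B cell receptor (105 to 127), Col3a1 of fibroblasts (67 to 74) and the globin Hba-a1 (108 to 124). They are single picks, and other members of the same lists lay above it, as counted before. The part of other cell types in the time differences was not tested.

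Over time few genes moved beyond the spread of the arrays. The changes are log2 differences from the limma fit over all 16 arrays with the array number as a block, with the standard error (SE), for 2 arrays against 3 or, between 10 and 18 h, 2 against 2. No gene passed an adjusted p of 0.05 from 4 to 10 h (0% of 18193), and 880 (4.84%) had an unadjusted p under 0.05. From 4 to 18 h 1 gene passed, 0.0055% of all, and 1223 (6.72%) had an unadjusted p under 0.05. From 10 to 18 h 2 genes passed, 0.011% of all, and 1088 (5.98%) had an unadjusted p under 0.05. With no change in any gene, a share of 0.05 would lie under that level on average. Without the block 0 genes passed in each of the 3 comparisons, with 553, 559 and 653 at an unadjusted p under 0.05. The 95% confidence interval of the difference lay within 1 log2 unit on either side of no change for 98.3% of genes from 4 to 10 h and for 97.2% in the other 2 comparisons. Left out alone, number 1 at 18 h raised the count to 161 from 4 to 18 h (90 higher, 71 lower) and to 65 from 10 to 18 h, with number 2 then the only array at 18 h and assumed to vary like the other groups. Without number 2 at 10 h 5 genes passed from 4 to 10 h, namely Bfar, Ctdnep1, Fmnl1, Foxp3 and Rara.

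The gene that fell from 4 to 18 h was Id3. It encodes an inhibitor of DNA binding, a protein without a DNA-binding part that holds E protein transcription factors in inactive pairs and acts in lymphoid and myeloid cell fate. The gene (NCBI gene 15903, chromosome 4) has 1 probe set. Its intensity was 575, 823 and 738 at 4 h, 368 and 420 at 10 h, and 182 and 280 at 18 h. The 3 groups did not overlap, and the order of times was the same in both numbers. Id3 was 3.02-fold lower at 18 h than at 4 h (-1.60 ± 0.089 SE, adjusted p = 4.62e-05 in limma), by 1.66 in the number 1 pair and by 1.56 in the number 2 pair. From 10 to 18 h it fell by 0.80 ± 0.095 (adjusted p = 0.0449), and from 4 to 10 h the difference was -0.80 ± 0.089 with an adjusted p of 0.0507.

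The 4 to 18 h fall of Id3 passed in 22 of 24 other settings, with a difference of -1.95 to -1.46 and an adjusted p from 4.6e-06 to 0.486. It did not pass without the block (adjusted p = 0.0753) or with the 7 control arrays alone, where 2 residual degrees of freedom remain (adjusted p = 0.486). Without number 1 at 18 h it was -1.46 (adjusted p = 0.00102) and without number 2 at 18 h -1.73 (adjusted p = 0.000206). The step from 10 to 18 h kept an adjusted p under 0.05 in 5 of 24 settings, 2 of which only set a stricter threshold that it did not meet. It did not pass with either 10 h array, any 4 h array or number 2 at 18 h left out (adjusted p 0.0507 to 0.678). The related Id2, which dendritic cells need to form, read 11070, 10422 and 10286 at 4 h and 10283 and 7824 at 18 h, a difference of -0.21 ± 0.106 with an adjusted p of 0.788. Id1 differed mainly between array numbers, at 641, 621 and 460 on number 1 and 172 to 250 on the others.

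The other gene that passed was Kdm2a, between 10 and 18 h. It encodes a histone demethylase that binds unmethylated CpG islands. The kept probe set of the gene (NCBI gene 225876, chromosome 19) read 573, 587 and 691 at 4 h, 734 and 702 at 10 h, and 436 and 348 at 18 h. Both 18 h arrays were below the other 5. Kdm2a was 1.84-fold lower at 18 h than at 10 h (-0.88 ± 0.103, adjusted p = 0.0449), and -0.63 ± 0.096 from 4 to 18 h (adjusted p = 0.18). The gene has 7 probe sets, and the others did not follow, with -0.36 in 1 of them and -0.19 to 0.06 in the other 5 from 10 to 18 h. It kept an adjusted p under 0.05 in 7 of 24 settings, 2 of which only set a stricter threshold that it did not meet. Its adjusted p was 0.664 for the mean of its probe sets, 0.0875 without the block, 0.358 without number 2 at 18 h, 0.0863 to 0.117 without a 4 h array, and 0.678 or 0.104 without a 10 h array.

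Itgax, which encodes CD11c, the integrin chain by which dendritic cells are commonly recognised, came next by p from 4 to 18 h (chromosome 7, 1 probe set). It read 5073, 3901 and 4179 at 4 h, 4830 and 3606 at 10 h, and 3534 and 2830 at 18 h. All 18 h values lay below all earlier ones, and number 1 was above number 2 at each time. The difference from 4 to 18 h was -0.53 ± 0.067 with an adjusted p of 0.0775, so it did not pass. It passed in 2 of 24 settings, the mean of probe sets (adjusted p = 0.042) and the fit without number 1 at 18 h (adjusted p = 0.0294).

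**Figure D2:**
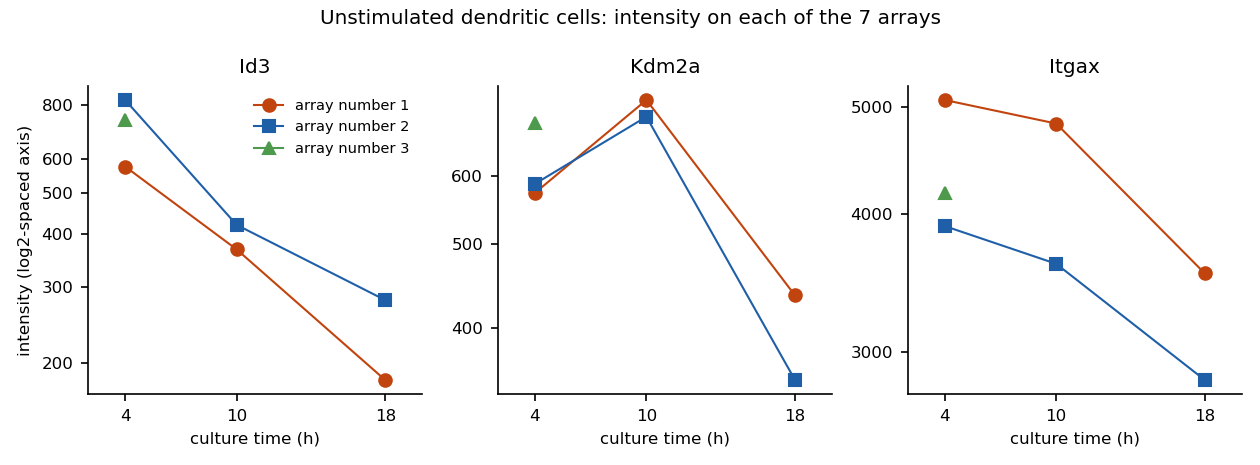
Intensity of Id3, Kdm2a and Itgax on each of the 7 unstimulated arrays against culture time in hours, on log2-spaced axes, with lines joining arrays of equal number. Id3 goes from 575 to 823 at 4 h to 182 and 280 at 18 h, Kdm2a is highest at 10 h (734 and 702), and Itgax is lowest at 18 h (3534 and 2830).

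The genes with the lowest p that did not pass are given as values. From 4 to 10 h Lgals9, a galectin that binds sugars on immune cells, read 1469, 1850 and 1556 and then 2106 and 2900 (0.67 ± 0.113, adjusted p = 0.765). Stat2, which carries the signal of type I interferon, read 339, 322 and 325 and then 494 and 450 (0.62 ± 0.121, adjusted p = 0.765), and both 10 h arrays lay above the 4 h arrays for both genes. Chpt1, an enzyme of phosphatidylcholine synthesis, differed by 0.59, the formyl peptide receptor Fpr2 by 0.43 and the Bcl2 family gene Bcl2l13 by 0.28. In the other direction lay Map3k12 (-1.17), Gtf2h4 of the repair and transcription factor TFIIH (-0.45), the helicase Recql (-0.42) and Bms1 of ribosome assembly (-0.34). The other probe sets of Map3k12, Gtf2h4, Recql and Bms1 differed by -0.25 to 0.06.

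From 4 to 18 h Rhog, a small GTPase of cell migration and engulfment, read 2609, 2964 and 3189 and then 3435 and 4234 (0.43 ± 0.061, adjusted p = 0.151). Both late arrays lay above the 4 h arrays, and number 1 lay below number 2 at both times. Sgk1, a kinase that is induced by glucocorticoids, differed by 0.54, and in it the gap between numbers was wider than the change with time, with 1914, 2057 and 2668 on number 1 and 4687, 5849 and 7085 on number 2 at 4, 10 and 18 h. Gsdmd, the pore protein of pyroptosis, differed by 0.36, the galectin Lgals8 by 0.45 and the chloride channel Best1 by 0.48. Lower at 18 h were Zzef1 (-0.62) and the proteasome subunit Psmc4 (-0.46), while their other probe sets differed by -0.24 to -0.01 and by -0.03. From 10 to 18 h the 5 lowest p in the upward direction belonged to Preb (0.84, with 0.07 and -0.02 in its other probe sets), the seipin gene Bscl2 (0.52), the carbonyl reductase Cbr3 (0.59), the endolysosomal channel Mcoln3 (0.36) and Rhog (0.35). The other probe set of Mcoln3 differed by -0.03. In the downward direction Bcl2l13 (-0.32) and Zzef1 (-0.48) followed the genes described above.

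Genes with a 2-fold difference the same way in both number pairs were few. From 4 to 10 h there were 0 among 10685 genes with a mean intensity of at least 200 in either group. From 4 to 18 h there were 3, all lower, while in the number 1 pair taken alone 3 genes were higher and 34 lower by that much and in the number 2 pair 61 and 99. Besides Id3 they were Mt2, a metallothionein that binds zinc and copper, and Wfdc21, which makes a small secreted protein. Mt2 read 5872, 7956 and 6504 at 4 h, 3699 and 5324 at 10 h, and 1883 and 3905 at 18 h, but its adjusted p was 0.449, with differences of -1.18 and -1.89 without number 1 or number 2 at 18 h. Its relative Mt1 had the same order in both numbers, with 9914, 11642 and 9958 at 4 h, 7447 and 8645 at 10 h, and 4244 and 6917 at 18 h (-1.23 ± 0.471, adjusted p = 0.672). From 10 to 18 h the 4 genes were Retnla, Asgr2, Ear3 and Rnase2a, all lower, and the last 3 belong to the genes that stood apart on number 2 at 18 h.

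Gene lists are described by their members and the median, beside the same for all genes, whose median differences were -0.003 from 4 to 10 h, 0.026 from 4 to 18 h and 0.028 from 10 to 18 h. At an unadjusted p under 0.05 the background from 4 to 18 h was 4.53% of genes higher and 2.19% lower. It was 3.97% and 2.01% from 10 to 18 h, and 2.43% and 2.41% from 4 to 10 h. Counts of list members are at this unadjusted level, and no member of a list other than Id3 passed the adjusted threshold. The share of all genes that lay higher in both number pairs was 23.5% from 4 to 10 h, 32% from 4 to 18 h and 29% from 10 to 18 h, and the share lower in both was 23.7%, 17.5% and 15.2%.

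Neutrophil genes had the most negative median from 4 to 18 h of the lists, though none passed the adjusted threshold. Of 12 neutrophil markers 6 were lower and 1 was higher from 4 to 18 h, with a list median of -0.45 and of -0.37 and -0.46 in the number 1 and number 2 pairs. Camp, the antimicrobial cathelicidin of secondary granules, read 1405, 1803 and 1064 at 4 h, 2247 and 1740 at 10 h, and 888 and 898 at 18 h (-1.05 ± 0.304, adjusted p = 0.449). The 18 h arrays lay below all others for this gene. Also lower were the granule proteins Ngp (-0.93) and Ltf (-0.70), the calcium-binding alarmin S100a9 (-1.08), and Padi4 (-0.62), which citrullinates histones. S100a8 read 14830, 12873 and 10867 at 4 h, 17997 and 14154 at 10 h, and 7282 and 10192 at 18 h, lowest at 18 h on each number. Csf3r, the receptor of G-CSF, went the other way (0.66), with 1551 on number 2 at 18 h and 560 to 941 on the others. The summed intensity of the 12 markers was 56339 to 68269 at 4 h and 47747 and 52738 at 18 h. The median lay between -0.57 and -0.31 in 22 other settings, with 5 lower markers without number 1 at 18 h and 4 without number 2 at 18 h. The serine proteases of precursor granules, Elane (403, 364 and 376, then 384 and 439, then 275 and 297) and Prtn3 (408, 358 and 372, then 340 and 400, then 227 and 281), were also lowest at 18 h. Of 9 progenitor markers 8 were lower at 18 h than at 10 h in both pairs, with a list median of -0.20. That median was -0.30 and -0.25 without number 1 or number 2 at 18 h. Without number 1 or number 2 at 10 h it was -0.13 and -0.31. From 4 to 18 h 3 of the 9 were lower in both pairs and 0 higher. The progenitor median was then -0.10, and 0.02 with spike-in centring. Mast cell and basophil markers had a median of 0.05 from 4 to 18 h with 0 of 9 higher or lower, and eosinophil markers had 0.35 in the number 1 pair and -1.38 in the number 2 pair.

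Genes of alternative activation, the state that interleukin 4 and interleukin 13 induce, were lower in 6 of 19 members from 4 to 18 h and higher in 0, with a median of -0.28. Retnla, a secreted protein of that state, read 1615, 4694 and 2457 at 4 h, 2650 and 4538 at 10 h, and 1232 and 1708 at 18 h. It was lower at 18 h in both numbers (-1.02 ± 0.285 from 4 h, adjusted p = 0.437, and -1.26 from 10 h), although number 2 lay above number 1 throughout. The other lower members were the lectins Mgl2 and Clec10a, the chemokine Ccl17, the signalling inhibitor Socs2 and the nuclear receptor Pparg (-0.42). Ccl17 and Mgl2 rested on 1 array. Ccl17 read 21718, 25051 and 18906 on number 1, and 13101 and 8615 on number 2 at 4 and 10 h. On number 2 at 18 h it read 1930. Mgl2 read 5592 at 4 h and 5991 at 18 h on number 1. On number 2 at 18 h it read 844, against 2640 to 5991 on the others. Without that array 1 member of 19 was lower from 4 to 18 h and the median was -0.18, and without number 1 at 18 h 7 were lower and it was -0.42. Arg1, which breaks down arginine, was at 8688 to 16958 and differed by -0.36 (adjusted p = 0.86).

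Among the dendritic cell markers 5 of 21 were lower from 4 to 18 h, 3 of which (Ccl17, Mgl2 and Clec10a) are also in the alternative activation list, and the other 2 were Itgax and Plet1. Flt3 was the 1 that was higher (0.30, adjusted p = 0.424). The list median was -0.05, and 0.04 and 0 in the 2 pairs. Without number 2 at 18 h 2 of the 21 were lower, and without number 1 at 18 h 5 were lower and 3 higher.

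Macrophage and lysosome lists had positive medians from 4 to 18 h, with no member past the adjusted threshold. Of 18 macrophage markers 5 were higher from 4 to 18 h and 0 lower, with a median of 0.28. Cd68, a glycoprotein of the lysosome membrane, read 3713, 5470 and 5773 at 4 h, 4062 and 5202 at 10 h, and 5040 and 7404 at 18 h (0.47 ± 0.144, adjusted p = 0.487), the highest time in each number. Adgre1, which encodes F4/80, was at 1859, 2052 and 2707 at 4 h and 1761 and 4033 at 18 h, so only number 2 was higher. Apoe, which carries cholesterol out of cells, read 626, 9419 and 7280 at 4 h, 558 and 11200 at 10 h, and 1319 and 15933 at 18 h (0.88 ± 0.25, adjusted p = 0.449). The gap between numbers in Apoe was far wider than that between times. The median of the list was 0.22 in the number 1 pair and 0.05 in the number 2 pair, and without number 1 at 18 h it was 0.07, with 2 markers higher and 1 lower. Without number 2 at 18 h it was 0.31, with 6 higher. The summed intensity of the markers was 79133 to 120766 at 4 h and 94850 and 135353 at 18 h.

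Lysosome genes had the same median in both pairs, 0.15 in each, and 0.18 in the fit. Of 27 members 8 were higher from 4 to 18 h and 0 lower, and 17 were higher in both pairs. Ctsk, a cathepsin that degrades collagen, read 385, 456 and 498 at 4 h, 436 and 496 at 10 h, and 503 and 688 at 18 h (0.54 ± 0.102, adjusted p = 0.265). Both 18 h arrays lay above all earlier ones. Mitf, a transcription factor of lysosomal genes, read 1016, 1443 and 1473 at 4 h, 1090 and 1613 at 10 h, and 1230 and 1928 at 18 h (0.37 ± 0.067, adjusted p = 0.232). It was higher at each later time within each number. The cathepsins Ctsb (0.40), Ctsd (0.26) and Ctsl (0.25), the membrane protein Lamp1 (0.18), the sialidase Neu1 (0.26) and the channel Mcoln1 (0.20) made up the rest. The count of higher members was 5 without number 1 at 18 h and 7 without number 2 at 18 h, where 1 was lower, and the median lay between 0.08 and 0.29 in 22 other settings.

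Interferon-stimulated genes differed with time mainly on number 2, and by little on number 1. Of 29 members 8 were higher from 4 to 10 h and 9 from 4 to 18 h, with 0 lower, and the medians were 0.32 and 0.42. Oasl2, an antiviral protein of the oligoadenylate synthetase family, read 308, 463 and 311 at 4 h, 354 and 1549 at 10 h, and 331 and 1573 at 18 h (1.09 ± 0.428 from 4 to 18 h, adjusted p = 0.677). Irf7, the factor that amplifies interferon production, read 354, 469 and 343, then 439 and 856, then 431 and 1142. Ifit1, which binds viral RNA, read 184, 438 and 345, then 232 and 878, then 191 and 931. In all 3 genes the late number 2 arrays were above all other arrays. Within number 1 the later values also lay above that at 4 h, by less. Of the 29 members 17 were higher in both pairs from 4 to 10 h and 14 from 4 to 18 h, with 0 and 1 lower in both. The list median from 4 to 18 h was 0.04 in the number 1 pair and 0.69 in the number 2 pair. It was 0.10 without number 2 at 18 h, where 2 of 29 members were higher, and 0.75 without number 1 at 18 h, where 20 were.

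MHC class I presentation had 6 of 15 members higher from 4 to 18 h and 0 lower (median 0.17, and 0.01 and 0.14 in the pairs). These were H2-K1 (0.24) and H2-D1 (0.22), which carry peptides to the surface, the loading factors Tapbp (0.28) and Calr (0.36), the trimming peptidase Erap1 (0.35) and the class I transactivator Nlrc5 (0.39). Without number 1 at 18 h 3 were higher, and without number 2 at 18 h 4. Of 21 pattern recognition receptors and their adaptors 5 were higher, among them the endosomal receptors Tlr3 (0.58), Tlr7 (0.70) and Tlr8 (0.32) for RNA, and 2 were without number 2 at 18 h and 6 without number 1 at 18 h. MHC class II presentation had a median of 0.09, and 0.05 and 0.11 without number 1 or number 2 at 18 h.

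Maturation genes depended on the array. From 4 to 10 h 3 of 23 members were higher and 0 lower (Cd274, Icosl and Marcksl1), 11 were higher in both pairs and 0 lower in both, and the median was 0.04. From 4 to 18 h the median was 0.02, with 3 higher and 1 lower. It was 0.32 without number 1 at 18 h, with 7 higher and 1 lower, and -0.18 without number 2 at 18 h, with 0 higher and 0 lower. Ccr7, the receptor that leads mature dendritic cells to lymph nodes, read 4232, 3823 and 5125 at 4 h, 5516 and 3731 at 10 h, and 4458 and 4597 at 18 h, with no order in time. The costimulatory Cd40 stayed between 301 and 452 and Cd86 between 690 and 1157. The 95% interval for Cd40 was -0.46 to 0.47. Cd274, the inhibitory ligand PD-L1, differed by 0.34 (adjusted p = 0.465) and the cytoskeletal protein Marcksl1 by 0.40 (adjusted p = 0.449). The medians from 4 to 18 h of 25 cytokine genes (0.01) and of 24 chemokine genes (-0.08) were also near 0. From 10 to 18 h the chemokine median was -0.13, and lay between -0.33 and -0.06 in 22 other settings. In that step 14 of the 24 were lower in both pairs and 1 higher, where 15.2% and 29% of all genes were. Of 18 genes in the list of NF-kB targets and feedback 12 were higher in both pairs from 4 to 10 h and 0 lower. From 4 to 18 h 11 were higher and 0 lower, and from 10 to 18 h 0 and 6. Of 21 apoptosis and survival genes 10 were higher and 0 lower, both from 4 to 10 h and from 4 to 18 h. Of all genes 23.5% and 32% were higher in these steps. How far these counts rest on single arrays was not tested.

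Genes of ribosome assembly and Myc targets lay lower, with a median of -0.22 from 4 to 18 h, and 18 of 24 members were lower in both pairs. At the unadjusted level 3 were lower and 0 higher. Ncl, the nucleolar protein nucleolin, read 5308, 4236 and 5000 at 4 h, 3821 and 3788 at 10 h, and 4183 and 3923 at 18 h. All later arrays lay below the 4 h arrays. The other 2 were Nolc1 (-0.34) and Nop58 (-0.77), the latter among the genes that stood apart on number 2 at 18 h (139, and 292 to 700 on the others). The median was -0.16 with either of the 18 h arrays left out and lay between -0.23 and -0.10 in 22 other settings.

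Clock genes, which run the daily rhythm of cells, had a median of 0.10 from 4 to 18 h, and 12 of 20 were higher at 18 h than at 10 h in both pairs, with 0 lower in both. Nr1d2, a repressor of the clock, read 236, 408 and 522 at 4 h, 337 and 510 at 10 h, and 366 and 986 at 18 h (0.87 ± 0.255, adjusted p = 0.451). Dbp, a clock output factor, read 178, 244 and 229, then 164 and 251, then 221 and 358 (0.40 ± 0.106, adjusted p = 0.424). Per3 (0.18) was the third member with an unadjusted p under 0.05. Without number 2 at 18 h the median was 0.02 and 1 member was higher. Without number 1 at 18 h it was 0.14 with 5 higher and 1 lower, and Nr1d2 passed (1.37, adjusted p = 0.0308).

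Among transcription factors of myeloid cells Zeb2, a repressor that acts in dendritic cell and monocyte fate, read 658, 1064 and 1140 at 4 h, 623 and 772 at 10 h, and 512 and 414 at 18 h. The values were lower at each later time in each number, and the difference was -0.86 ± 0.199 (adjusted p = 0.349). It was -1.20 without number 1 at 18 h (adjusted p = 0.0321) and -0.51 without number 2 at 18 h (adjusted p = 0.683). Irf8 read 2496 to 4877 and Irf4 848 to 2774, and both differed between arrays of 1 time by as much as between times.

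**Figure D3:**
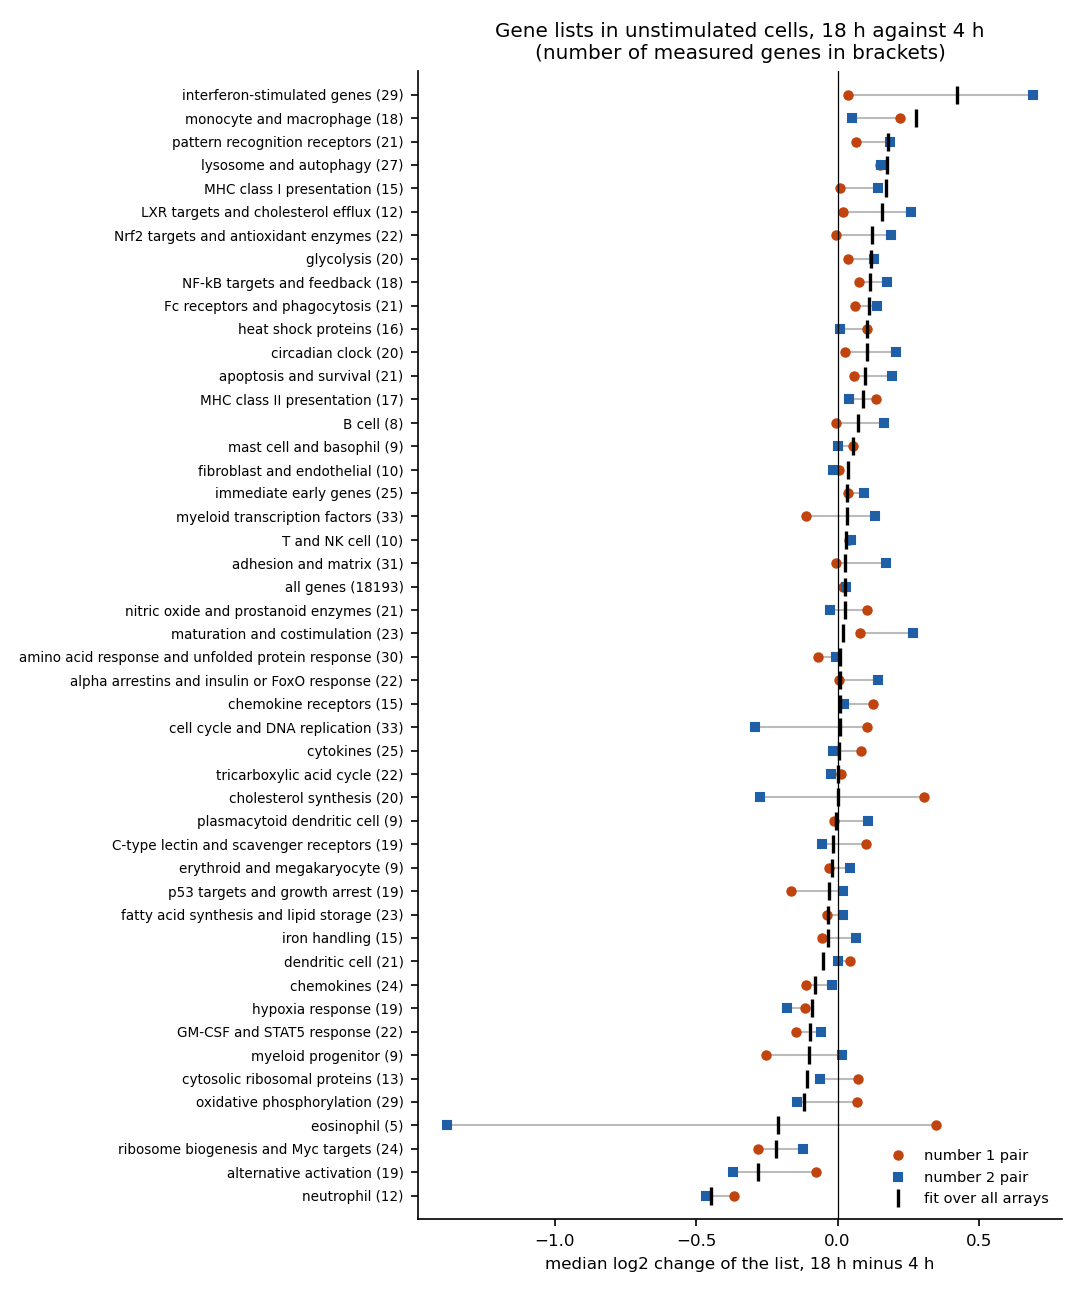
Median log2 difference between 18 and 4 h of 47 gene lists and of all genes in unstimulated cells, in the pair of number 1 arrays (circles), the pair of number 2 arrays (squares) and the fit over all arrays (bars), with the number of measured genes in brackets. Neutrophil genes are lower in both pairs (-0.37 and -0.46), lysosome genes are higher in both (0.15), and interferon-stimulated genes are higher in number 2 (0.69) and near 0 in number 1 (0.04).

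The largest differences among the controls were between array numbers, which are described here with no test. Between number 1 and the others at the same time there are 4 differences, and 87 genes were at least 1 log2 unit higher on number 1 in all 4 and 40 at least 1 lower. All 33 measured genes of the cell cycle and DNA replication were higher in all 4, where 16% of all genes were, and their median difference was 1.47. Ccnd2, the cyclin by which growth factors start division, read 4039, 3186 and 3490 on number 1 and 805, 568, 746 and 339 on the others. Rrm2, which makes the building blocks of DNA, read 2661, 1731 and 2985 on number 1 and 324 to 525 on the others. Neither gene had an order over all times that both numbers shared, though both genes were lower at 10 h than at 4 h in each number. From 4 to 10 h 18 of the 33 were lower in both pairs and 3 higher, where 23.7% and 23.5% of all genes were. From 4 to 18 h 6 were lower and 6 higher in both pairs. At an unadjusted p under 0.05 there were 0 of the 33 in a time comparison.

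Targets of GM-CSF signalling through STAT5 lay higher on number 1 in 13 of 22 genes. With time, from 4 to 18 h, 13 of the 22 were lower in both pairs and 2 higher, where 17.5% and 32% of all genes were. The median of that change was -0.10, and lay between -0.13 and 0.02 in 22 other settings. Among the genes higher on number 1 was Cish, a feedback inhibitor of that pathway (3497, 3055 and 2947 against 482 to 926). Plet1, a surface protein of some dendritic cells, read 8088, 8770 and 7208 on number 1, and 1602, 705, 1037 and 180 on the others. Cdh1, the E-cadherin that joins dendritic cell clusters, read 2126, 1429 and 1034 on number 1 at 4, 10 and 18 h. On number 2 it read 460, 326 and 251, and on number 3 at 4 h 423. It was thus lower at each later time in both numbers, but did not pass in a time comparison. In all 3 genes the lowest value was that of number 2 at 18 h. Of 24 genes of ribosome assembly 16 were higher on number 1.

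Macrophage genes were lower on number 1 in 13 of 18 markers, where 18.7% of all genes were, with a median of -0.59. So were 19 of 27 lysosome genes, 8 of 12 targets of the oxysterol receptor LXR, 14 of 29 interferon-stimulated genes and 14 of 22 genes of the alpha arrestin and FoxO list. Maf, a factor of macrophages, read 439, 359 and 323 on number 1 and 1196 to 2041 on the others. The surface protein Ms4a7 read 244, 360 and 338 against 1016 to 2697, and Saa3, an acute phase protein, 1801 to 3069 against 8184 to 14388. Xist, the RNA of the inactive X chromosome of female cells, read 252 to 286 on number 1 and 6905 to 7663 on the others, and the Y-linked Eif2s3y read 896 to 1222 and 63 to 69. These genes were picked for their differences after their values were seen.

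Macrophage, lysosome, interferon-stimulated and clock genes thus had positive medians both at 18 h against 4 h and on the other arrays against number 1. Pattern recognition and LXR genes did as well. Ribosome assembly, alternative activation and GM-CSF genes had negative ones in both. On number 1 against the others the median was 0.42 for alternative activation and 0.33 for GM-CSF genes. The neutrophil list had a median of 0.08 on number 1 against the others, 3 of 12 genes higher on number 1 and 2 lower. Whether number 2 at 18 h comes from the same source as the other number 2 arrays is not in the labels. Its deviations from its group mean correlated with those of number 2 at 4 h at 0.40 and of number 3 at 4 h at 0.73, across genes.

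**Figure D4:**
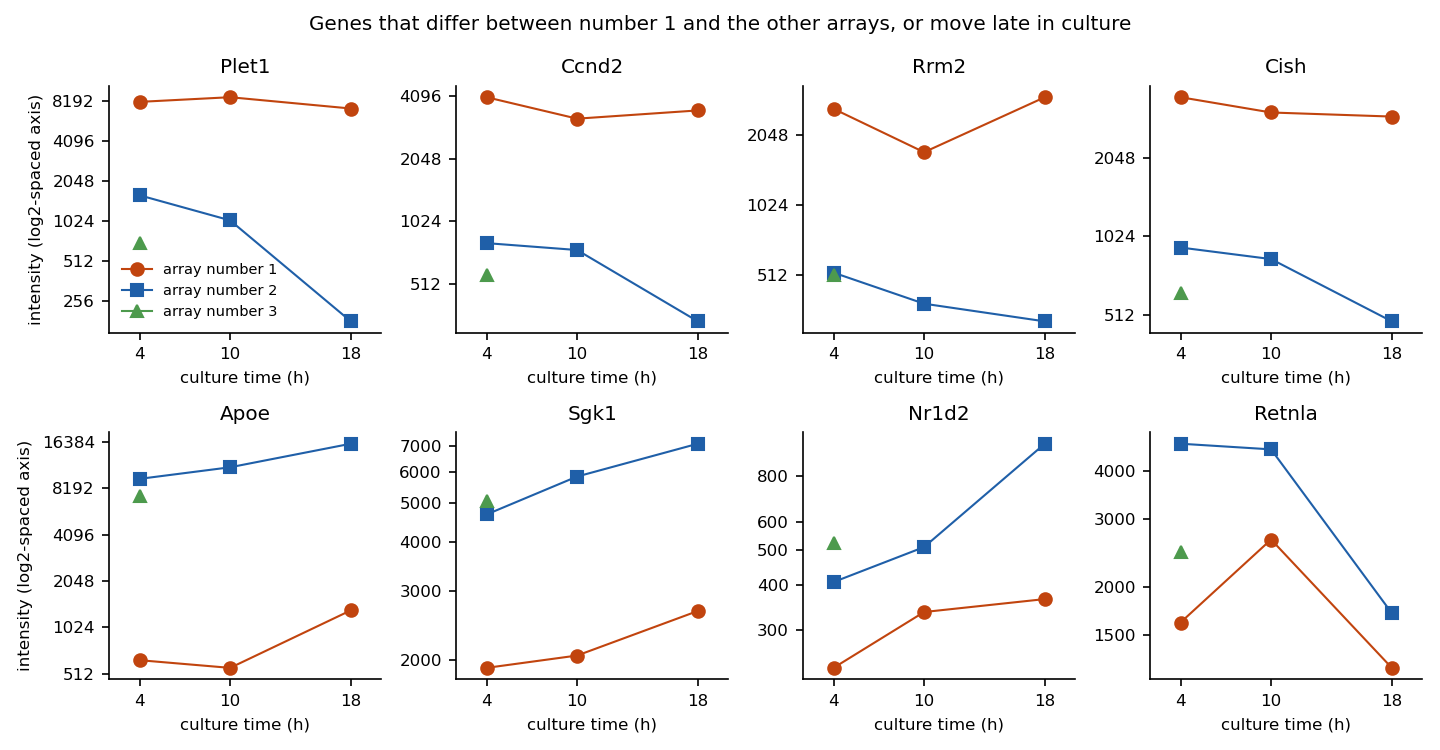
Intensity of 8 genes on each of the 7 unstimulated arrays against culture time in hours, on log2-spaced axes, with lines joining arrays of equal number. Plet1, Ccnd2, Rrm2 and Cish lie higher on number 1 at all times, Apoe and Sgk1 lower, and Nr1d2 is highest on number 2 at 18 h (986) while Retnla is lowest at 18 h in each number (1232 and 1708).

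The same hours with bacteria served to ask whether a time course was that of culture alone. For each gene the change from 4 h in control cells was set against that in NCFM cells in the same fit. The difference passed for 457 genes from 4 to 10 h, 1.55% of genes with the higher change in control and 0.962% with the lower, and for 1665 genes from 4 to 18 h, 5.93% and 3.23%. Without the block 92 and 619 passed. The count at 10 h was 50 without number 1 at 10 h, and 189, 190 and 223 without number 1, 2 or 3 at 4 h. At 18 h 35.3% of the passing genes had the lower change in control, and 46% of 1840 did after quantile normalization.

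Id3 differed between both kinds of culture. On the NCFM arrays it read 199, 280 and 255 at 4 h, 173, 216 and 214 at 10 h, and 184, 219 and 229 at 18 h, a change of -0.21 ± 0.078 from 4 to 18 h. It was thus already low with bacteria at 4 h, at the level that control cells had at 18 h. The difference of the changes was -1.39 ± 0.118 (adjusted p = 0.000238), and -0.52 at 10 h (adjusted p = 0.0482). Kdm2a stayed at 467 to 546 on all NCFM arrays, and its difference at 18 h was -0.51 (adjusted p = 0.0316).

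Itgax went the same way in both, and further with bacteria. On the NCFM arrays it read 5478, 4515 and 4149 at 4 h, 3135, 2730 and 2371 at 10 h, and 2079, 1699 and 1654 at 18 h. The change to 18 h was -1.38 ± 0.059 with bacteria, and the difference of the changes was 0.85 ± 0.089 (adjusted p = 0.000561). Mrc1, the mannose receptor, was level in control cells at 1101 to 1646, and the difference was 3.09 (adjusted p = 2.2e-08). Chpt1 differed by -1.03 at 18 h and Stat2 by 0.73.

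Among the lists ribosome assembly had 11 of 24 members with the higher change in control at 18 h and 0 lower. Ncl, for example, differed by -0.22 between 4 and 18 h in control cells and by -1.61 with bacteria (adjusted p of the difference 0.000238). Macrophage markers had 6 of 18 higher and 1 lower, interferon-stimulated genes 5 of 29 higher and 2 lower, and lysosome genes 1 of 27 higher and 2 lower. The neutrophil list had 1 of 12 in each direction, and its median change with bacteria was not tested against that in control as a list. The interferon count again rested on number 2 at 18 h, without which 1 was higher and 2 were lower.

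**Figure D5:**
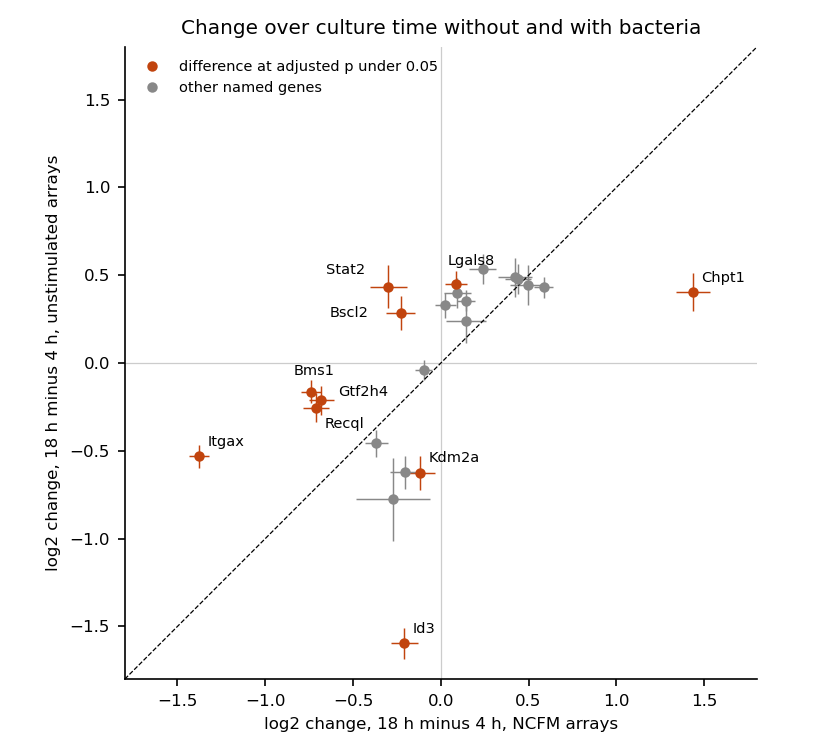
Log2 change from 4 to 18 h in unstimulated cells (vertical) against that in cells with NCFM (horizontal) for the 23 named genes, with bars of 1 SE and a dashed line of equal change. Genes in red have an adjusted p under 0.05 for the difference, with Id3 at -1.60 without and -0.21 with bacteria, and Itgax at -0.53 and -1.38.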

How the data were processed

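The deposited table holds intensity values for each probe set and array, linear whole numbers from 42 to 31573 and already on a common scale. The authors' methods of summarization, background correction and normalization are not given in the sources used here. Platform annotation pairs 34945 of the 45101 probe sets with a single gene and 932 with several; 64 are controls and 9160 have no entry. Intensities were taken to log2, and for each of 18193 genes, 9010 of which have several probe sets, the one brightest on average across the 16 arrays was kept. Symbols were updated through a RefSeq gene table.

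Genes were fitted in limma 3.58.1 (R 4.3.3, lmFit and eBayes) with a mean for each of 6 groups and the array number as a block, over all 16 arrays (8 residual degrees of freedom). All tests were two-sided, with Benjamini-Hochberg adjustment across the 18193 genes. Arrays of equal number deviated alike in all 36 pairs across groups (correlation 0.19 to 0.75, median 0.42), against -0.75 to 0.73 in 70 pairs of different numbers. With 2 arrays in a group their deviations mirror each other, so these pairs are not separate evidence.

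The control arrays, the 37 pathway and 11 cell type lists (819 of 903 genes measured) and the tests were chosen with earlier results of these data known. Named genes are the called genes of each comparison or, where fewer than 3 were called in a direction, the 5 of lowest p with a mean intensity of at least 200 and the same direction in both number pairs; list members may be named too. The number of arrays limits the precision. The fit was tested on simulated data. Plots used matplotlib 3.10.9 under Python 3.11.15. Other settings were no block, other blocks, the 7 controls alone, other normalizations and probe set rules, a pseudocount, array weights, stricter thresholds and each control array left out; arrays 1 and 2 alone, spike-in centring and a random block were added after the data were seen. Probe sets of several or no genes were left out.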

Additional observations from a re-analysis of the deposited data

Results flagged for a closer look

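The change over time differed between control and NCFM cells, by a test of the difference in limma, for 457 genes from 4 to 10 h and for 1665 genes from 4 to 18 h. Of the named genes, from 4 to 10 h the control change minus the NCFM change was -0.86 for Chpt1, 0.42 for Bcl2l13, -0.52 for Id3, -1.38 for Map3k12, -0.36 for Gsdmd and 0.65 for Itgax on the log2 scale. From 4 to 18 h it was -1.03 for Chpt1, 0.73 for Stat2, -1.39 for Id3, 0.47 for Gtf2h4, 0.46 for Recql, 0.58 for Bms1, 0.36 for Lgals8, 0.85 for Itgax, -0.51 for Kdm2a and 0.51 for Bscl2. All of these had an adjusted p under 0.05 for the difference. No control group has more than 3 arrays, so none was tested for outlying arrays.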

How the results depend on the processing

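From 4 to 10 h 0 genes passed. 1 gene, Id3, passed with the block of number 1 against the others, quantile normalization, the mean of probe sets, the pseudocount of 16, trend and robust variance, or array weights, and 3 (Chpt1, Lgals9 and Stat2) with spike-in centring; leaving out 1 control array gave 0 to 5. From 4 to 18 h 1 passed, against 0 without the block or with the 7 controls alone, 2 with the 5th percentile subtracted or the mean of probe sets, 3 with spike-in centring, and 1 to 161 with 1 array left out. From 10 to 18 h 2 passed. The count was 1 with median centring or a random block (Kdm2a) and 1 with the 5th percentile subtracted (1700052I22Rik, neither of the 2), and 0 without the block, with the block of number 1 alone or the separate block, with the 7 controls alone, arrays 1 and 2 alone, quantile normalization, the mean of probe sets, the pseudocount, array weights, spike-in centring, adjusted p under 0.01 or a minimum change of 1; leaving out 1 array gave 0 to 65. The difference from NCFM from 4 to 10 h passed for 457 genes, against 92 without the block, 258 with a random block, 855 with array weights, 60 at adjusted p under 0.01, 145 with a minimum change of 1, 22 with arrays 1 and 2 alone and 9884 with spike-in centring, and 50 to 595 with 1 array left out (50 without number 1 at 10 h). That from 4 to 18 h passed for 1665, against 619 without the block, 675 at adjusted p under 0.01, 489 with a minimum change of 1, 580 with arrays 1 and 2 alone, and 1111 to 1676 with 1 array left out. Spike-in centring moved the median of all genes by over 0.1, to 0.176 from 4 to 10 h and to 0.143 from 4 to 18 h, and left 0.921% and 12.2% of the passing differences from NCFM lower in control. No result changed direction among the named genes. These were chosen for a low p and the same direction in both pairs, so a reversal was unlikely from the start. List medians that changed sign under spike-in centring included dendritic cell, clock, GM-CSF and LXR genes from 4 to 10 h. From 4 to 18 h they included dendritic cell, progenitor, chemokine and GM-CSF genes, and from 10 to 18 h clock and MHC class I genes. The causes of these shifts were not tested. The number of arrays, 2 at each late time, limits the precision.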

Other observations

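Oxidative phosphorylation, the energy supply of mitochondria, had a median of -0.12 from 4 to 18 h over 29 genes, with 0.07 in the number 1 pair and -0.14 in the number 2 pair, and 0 genes at an unadjusted p under 0.05 in limma. Of the 29, 14 were lower in both pairs from 10 to 18 h, against 15.2% of all genes, with a median of -0.10. Cholesterol synthesis had a median of 0 over 20 genes, with 0.31 in the number 1 pair and -0.27 in the number 2 pair. Targets of LXR, the receptor that turns on cholesterol efflux, had 3 of 12 genes higher at that level (median 0.16, and 0.02 and 0.26 in the pairs). In the step from 10 to 18 h 3 of 12 were higher and 0 lower, with 0.18 and 0.22 in the pairs, and 1 was higher without number 2 at 18 h. The 5 eosinophil markers were lower at 18 h than at 10 h in both pairs, with a median of -0.69, though 0 of them had an unadjusted p under 0.05. Their summed intensity at 4, 10 and 18 h was 3302, 10293 and 7923 on number 1, and 4859, 5248 and 1374 on number 2. From 4 to 18 h 0 of the 5 were lower and 0 higher in both pairs.

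From 4 to 10 h MHC class I genes had 4 of 15 members with a lower change in control than in NCFM cells at an adjusted p under 0.05 and 0 higher, and ribosome assembly had 6 of 24 higher and 0 lower. Without number 1 at 10 h these counts were 0 and 0, and without number 2 at 10 h 3 and 8.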
